A study of Sus scrofa domesticus and Sus scrofa with 18 samples.

Results

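Spleen of Rongchang pigs just after birth (B0d) was compared with spleen of Rongchang pigs given as weaned for 30 days (W30d). The members were chosen by the stage given in the sample labels, 3 B0d libraries and 3 W30d libraries, which are 6 of the 18 libraries of the study. Each library came from a different healthy female pig of this domestic breed, and no treatment is given for any of them. The other 12 libraries came from Rongchang pigs at 55 days before birth (E55d), 180 days (A180d) and 2 years (A2Y) and from 2-year-old Wild Boars (WB), 3 per group. In all libraries strand-specific RNA-seq gave a level for 12913 protein-coding genes and 15040 long non-coding RNAs (lncRNAs). The age of the W30d pigs is not settled by the sources used here. The paper's methods give them as weaned for 30 days, whereas its abstract counts 30 days after birth. Its results place B0d and W30d in the suckling period. Birth, suckling, growth and possibly weaning therefore lie together in the comparison and cannot be told apart.

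The spleen filters blood in its red pulp, where macrophages remove old red cells and recover their iron, and holds lymphocytes in its white pulp. Around birth it can also produce red cells, platelets and granulocytes. After birth, B cells, T cells and natural killer (NK) cells fill the organ, while a capsule and trabeculae of smooth muscle and matrix grow with it. Levels below are log2(FPKM+1), where FPKM is fragments per kilobase of transcript scaled to the mapped fragments of the library, and a difference is the W30d mean minus the B0d mean on this scale, given with its standard error. The scale understates changes of low genes. In whole tissue, fewer cells of a type and less RNA per cell cannot be told apart.

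The 6 libraries were not equally alike. In W30d replicate 2, 126 protein-coding genes lay more than 2 log2 units below both other W30d libraries, whereas this number was 2 to 24 in the other 17 libraries, each set against the rest of its group. The 126 included 14 of the 15 measured erythroid genes. In B0d replicate 3, 50 genes lay more than 2 log2 units above both other B0d libraries, among them ALB, the albumin gene of liver, at 9.05 against 0.13 and 0.45. The mean Pearson correlation of W30d replicate 2 was 0.961 with the A2Y libraries, 0.951 with the A180d libraries and 0.938 with the other W30d libraries over protein-coding genes. For many of the lists whose count or median moved without these libraries, values without them are given beside the result, but not for every list.

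Defining markers of the spleen were present. TLX1 and NKX2-3, transcription factors of spleen mesenchyme, had levels of 3.18 to 4.28 at B0d and of 2.56 to 3.41 at W30d. Of the markers fixed for each cell type, 3 of 5 B-cell, 3 of 5 T-cell, 4 of 5 macrophage, 2 of 5 neutrophil, 1 of 5 erythroid, 2 of 4 endothelial and 4 of 4 smooth muscle genes were measured under their symbol, and none of these was listed at 0 in the 6 libraries. One protein-coding entry without a symbol, ENSSSCG00000018700, held 41.1 to 50.0% of the summed protein-coding FPKM of each of these 6 libraries. Among the other libraries its share was 53.6% in A2Y replicate 1 and 0 in A180d replicates 1 and 2. The files hold no read counts, so the depth behind a single value is unknown and no counting interval is given.

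Between B0d and W30d, 2017 of 12913 protein-coding genes were called, that is, they had an adjusted p of at most 0.05 with limma over all 18 libraries. This is 15.6% of the genes tested. At W30d 1034 genes (8.01%) were higher and 983 (7.61%) were lower, and the median difference over all genes was 0.03. Of the called genes, 1904 had values at B0d and W30d that did not overlap, while 29.8% of all genes tested showed no overlap. A difference of at least 1 was reached by 331 of the called genes that rose and by 241 of those that fell. The B0d and W30d libraries were more variable than those of E55d and A180d. With a variance of its own for each group, 1068 genes (8.27%) were called, all of them among the 2017, of which 541 (4.19%) were higher and 527 (4.08%) lower. With the 6 libraries alone, 417 (3.23%) were called, 408 of them among the 2017, with 201 (1.56%) higher and 216 (1.67%) lower. Without W30d replicate 2, 2492 genes (19.3%) were called, 1408 (10.9%) higher and 1084 (8.39%) lower. Without B0d replicate 3, 1602 (12.4%) were called, 785 (6.08%) higher and 817 (6.33%) lower. Leaving out B0d replicate 1 gave 1587 calls (792 higher, 795 lower), and leaving out B0d replicate 2 gave 1762 (841 higher, 921 lower). Leaving out W30d replicate 1 gave 1450 (807 higher, 643 lower), and leaving out W30d replicate 3 gave 1108 (593 higher, 515 lower). The counts of list members below are to be read against these shares and numbers.

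The largest rises and falls were taken among called genes with a symbol and a mean of at least 2 in the higher group. Their B0d and W30d values also had to be without overlap, so the separation of the groups was fixed by this rule. The largest rise was that of CCL5, a chemokine of T and NK cells. It had levels of 2.65, 3.75 and 2.75 in the B0d libraries and of 5.26, 8.26 and 7.08 in the W30d libraries, a difference of 3.81 ± 0.56 (adjusted p = 0.000406). As the rule required, all W30d libraries lay above all B0d libraries, and W30d replicate 2 held the highest value. NUGGC, a GTPase known from germinal centre B cells, had 0.29, 0.54 and 0.59 at B0d and 2.95, 4.11 and 4.22 at W30d, a difference of 3.29 ± 0.27 (adjusted p = 9.6e-06). CLEC4F, a C-type lectin receptor, had 0.95, 0.14 and 0.32 at B0d and 4.14, 4.01 and 3.09 at W30d (difference 3.28 ± 0.36, adjusted p = 5.02e-05). All W30d libraries lay far above B0d in both genes. Their standard deviations were 0.70 and 0.57 at W30d, against 0.16 and 0.42 at B0d.

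HLA-DRA, the alpha chain of the main class II antigen-presenting molecule under its human symbol, was the most abundant of these genes. Its levels were 7.16, 7.03 and 7.21 at B0d and 9.11, 10.28 and 9.41 at W30d, a difference of 2.47 ± 0.24 (adjusted p = 2.38e-05). IDO1, an enzyme of tryptophan breakdown, had 0.57, 0.52 and 1.00 against 2.43, 2.88 and 3.49 (difference 2.24 ± 0.42, adjusted p = 0.00216). For both genes the W30d libraries lay above the B0d libraries, as the rule of choice required. POLR1H, a subunit of RNA polymerase I, was called higher as well, but its B0d values of 0, 3.0 and 0.15 were spread widely and include a library in which it is listed at 0, against 3.18, 3.70 and 3.63 at W30d.

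The largest fitted fall was that of HBB, which is described with the erythroid genes. ENG, the endothelial coreceptor endoglin, had 3.76, 3.88 and 4.96 at B0d and 2.07, 1.98 and 1.87 at W30d, a difference of -2.23 ± 0.27 (adjusted p = 0.000111). TGFBR3, another coreceptor of the TGF-beta family, had 4.67, 4.78 and 4.71 against 2.81, 3.05 and 2.68 (difference -1.87 ± 0.23, adjusted p = 0.000135). NGFR, the low-affinity nerve growth factor receptor, had 1.87, 2.13 and 3.45 against 0.21, 0.56 and 0.21 (difference -2.16 ± 0.40, adjusted p = 0.00199). B0d replicate 3 was the highest library for ENG and NGFR, and all 3 genes were also called without it.

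JAG1, a Notch ligand, had 4.48, 4.47 and 4.74 at B0d and 2.88, 2.92 and 2.75 at W30d, a difference of -1.71 ± 0.19 (adjusted p = 5.45e-05). LIFR, a receptor subunit for leukaemia inhibitory factor, had 5.65, 5.75 and 5.88 against 4.29, 4.02 and 3.88 (difference -1.70 ± 0.19, adjusted p = 5.74e-05). In both genes the groups were far apart and the libraries of each group lay close together. The transcription factor TBX3 had 2.98, 2.65 and 3.91 against 1.3, 1.47 and 1.26 (difference -1.84 ± 0.26, adjusted p = 0.000287). PTPRG, a receptor phosphatase, fell by 1.65 on the log2 scale, and PLAT, the tissue plasminogen activator, and PLAC9, a small secreted protein, each fell by 1.75. SH3PXD2B, a scaffold of podosomes, fell by 1.82, and GPC1, a heparan sulphate proteoglycan of the cell surface, fell by 1.71.

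**Figure D1:**
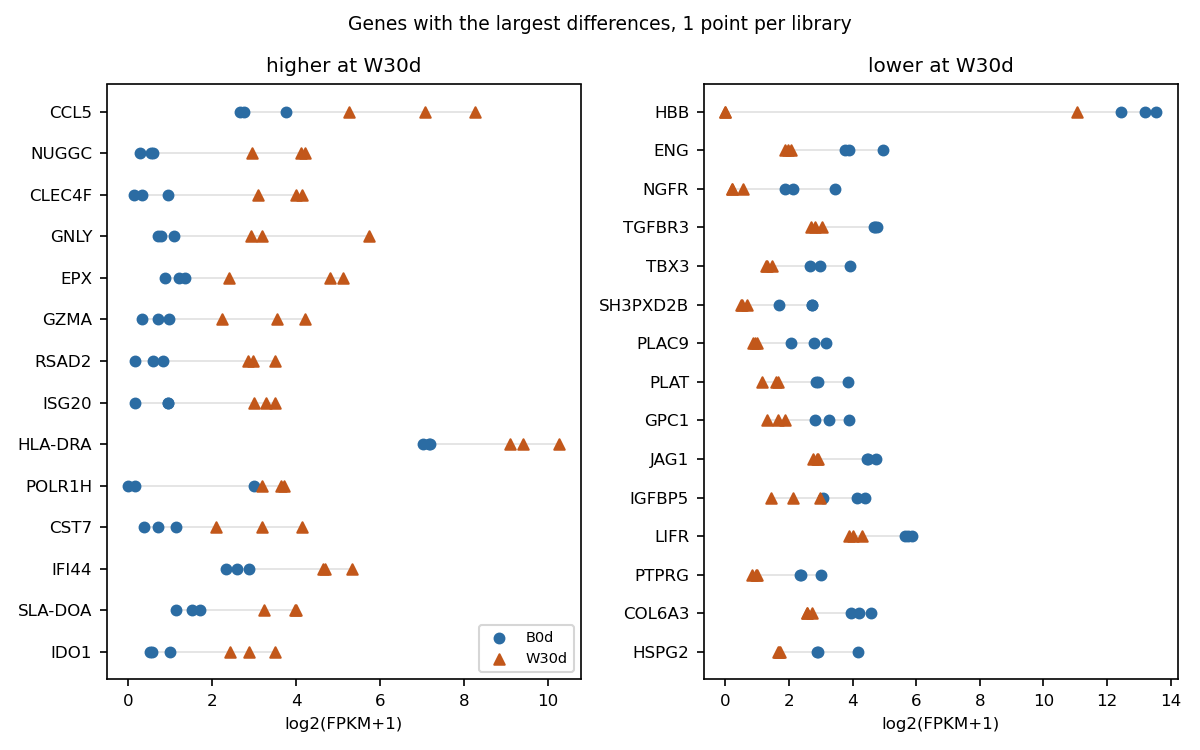
Levels, log2(FPKM+1) on the x axis, of 14 of the 15 protein-coding genes with the largest rise (left) and the 15 with the largest fall (right) among called genes with a symbol, with 1 point for each of the 3 B0d (circles) and 3 W30d (triangles) libraries. These genes were chosen to have groups that do not overlap. HBB is listed at 0 in 2 W30d libraries and POLR1H in 1 B0d library.

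Genes that interferon is known to induce had the highest share of called members among the 26 lists. Of 29 measured members, 26 rose, 0 fell and 3 did not pass the test, with a median difference of 1.43 against 0.03 over all genes. The variance per group left 25 rises and the 6 libraries alone 13. RSAD2, which encodes the antiviral enzyme viperin, had 0.82, 0.58 and 0.16 at B0d and 2.86, 3.49 and 2.96 at W30d, a difference of 2.59 ± 0.25 (adjusted p = 2.38e-05). ISG20, an exonuclease, had 0.17, 0.94 and 0.95 against 3.27, 3.50 and 2.99 (difference 2.56 ± 0.37, adjusted p = 0.000384). IFI44 had 2.88, 2.32 and 2.59 against 4.70, 5.33 and 4.64 (difference 2.29 ± 0.32, adjusted p = 0.000272). Each of these showed 2 separate groups of libraries with little spread. IFIT2, an RNA-binding protein, had 3.44, 4.05 and 2.48 against 4.58, 5.89 and 5.23 (difference 1.91 ± 0.39, adjusted p = 0.00415). The mean level over the 29 genes was 2.46, 2.28 and 2.52 in the B0d libraries and 3.49, 4.34 and 3.72 in the W30d libraries, so that replicate 2 was highest. Leaving out any 1 of the 6 libraries gave 24 to 26 rises. The rise of the list mean in W30d replicate 2 went with that of the NK, T and antigen-presentation lists, and the part of cell numbers in it was not tested.

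NK and cytotoxic genes rose in the same comparison. Of 13 measured members, 9 rose, 0 fell and 4 did not pass the test (median difference 1.44), with 8 rises with a variance per group and 5 with the 6 libraries alone. GZMA, the granzyme A protease of cytotoxic granules, had 0.32, 0.98 and 0.71 at B0d and 2.24, 4.20 and 3.53 at W30d, a difference of 2.66 ± 0.52 (adjusted p = 0.00296). GNLY, the granule protein granulysin, had 0.71, 1.10 and 0.78 against 2.92, 5.75 and 3.18 (difference 3.09 ± 0.62, adjusted p = 0.00355). CST7, which encodes cystatin F, had 1.13, 0.71 and 0.38 against 2.08, 4.15 and 3.18 (difference 2.39 ± 0.37, adjusted p = 0.00059). In each of them W30d replicate 2 was the highest library and W30d replicate 1 the lowest of its group, still above B0d. PRF1, the pore-forming perforin, had 0.52, 0.80 and 0.62 against 1.41, 3.09 and 1.74. Without W30d replicate 2, 8 of the 13 rose, and the median difference was 0.93.

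T-cell genes rose less evenly. Of 26 measured members, 11 rose, 0 fell and 15 did not pass the test (median difference 0.71, and 0.46 without W30d replicate 2). With a variance per group 7 rose, and with the 6 libraries alone 3. CD247, the zeta chain of the T-cell receptor complex, had 3.91, 3.63 and 4.15 at B0d and 5.16, 6.49 and 6.31 at W30d, a difference of 2.09 ± 0.28 (adjusted p = 0.00025). CD3D, another chain of the complex, had 3.54, 3.48 and 4.27 against 4.66, 5.95 and 5.99, and the kinase LCK had 2.78, 2.56 and 3.31 against 3.95, 5.42 and 5.10 (differences 1.77 ± 0.31 and 1.94 ± 0.31, adjusted p = 0.00144 and 0.0007). The adhesion receptor CD2 had 3.42, 2.89 and 3.70 against 4.43, 5.74 and 5.31 (difference 1.82 ± 0.30, adjusted p = 0.000921). W30d replicate 1 lay closest to B0d in all 4 genes. CD8A, the coreceptor of cytotoxic T cells, had 1.14, 0.83 and 1.61 against 1.77, 4.38 and 2.47, the widest spread at W30d among the T-cell genes called. The number of rises was 7 without B0d replicate 1, 6 without B0d replicate 2 and 7 without W30d replicate 2.

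B-cell genes were higher at W30d with a narrower spread. Of 15 measured members, 10 rose, 1 fell and 4 did not pass the test (median difference 0.77), with 7 rises and no fall with a variance per group and 4 rises with the 6 libraries alone. Without W30d replicate 2, 7 rose and 1 fell, with a median difference of 0.61. CD79B, a signalling chain of the B-cell receptor, had 3.79, 3.64 and 3.21 at B0d and 5.47, 5.26 and 4.61 at W30d, a difference of 1.57 ± 0.26 (adjusted p = 0.00093). MS4A1, which encodes CD20, had 3.85, 3.16 and 3.85 against 5.08, 5.04 and 4.59 (difference 1.29 ± 0.19, adjusted p = 0.000437). For both of these surface genes W30d replicate 3 was the lowest W30d library, whereas it was not the lowest for the T-cell genes named above. VPREB1, the surrogate light chain of immature B cells, rose from 1.22, 1.54 and 2.16 to 3.63, 3.27 and 2.64 (difference 1.54 ± 0.34, adjusted p = 0.00676). The member that fell was VPREB3, also known from immature B cells, with 1.17, 1.03 and 1.13 against 0.59, 0.76 and 0.50.

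Of 11 measured genes of plasma cells and germinal centres, 3 rose, 0 fell and 8 did not pass the test (median difference 0.55, and 0.33 without B0d replicate 3 and 0.22 without W30d replicate 3). MZB1, a chaperone of antibody secretion, had 2.36, 2.40 and 3.0 at B0d and 4.98, 5.14 and 4.24 at W30d, a difference of 2.20 ± 0.33 (adjusted p = 0.000483). CD38 had 2.55, 2.81 and 2.62 against 3.48, 4.55 and 4.21 (difference 1.42 ± 0.25, adjusted p = 0.00139). Both rose also with the 6 libraries alone. ICOS, a costimulatory receptor of T cells, had 1.26, 0.95 and 1.38 against 1.73, 3.02 and 1.73, and its call was lost without W30d replicate 2 (adjusted p = 0.125 with limma). Over the later stages MZB1 had mean levels of 8.32 at A180d and 7.02 at A2Y, above its W30d values.

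Genes of dendritic cells and antigen presentation rose with a stable count. Of 14 measured members, 9 rose, 0 fell and 5 did not pass the test (median difference 1.14), and the count was 9 in each fit that left out 1 of the 6 libraries and 4 with the 6 libraries alone. Class II genes of the pig SLA complex had the largest differences. SLA-DOA had 1.71, 1.52 and 1.14 at B0d and 3.22, 3.99 and 4.01 at W30d, a difference of 2.28 ± 0.21 (adjusted p = 1.57e-05). SLA-DQB1 had 4.63, 5.08 and 4.95 against 6.76, 7.91 and 6.53 (difference 2.18 ± 0.28, adjusted p = 0.000169). SLA-DMB, part of the peptide-loading molecule, had 5.32, 5.06 and 4.21 against 6.27, 7.19 and 6.67, and its partner SLA-DMA had 4.50, 3.99 and 3.87 against 5.17, 6.26 and 5.41 (differences 1.85 ± 0.27 and 1.49 ± 0.26, adjusted p = 0.000352 and 0.00136). CIITA, the transactivator of class II genes, had 1.41, 1.47 and 2.34 against 2.66, 3.42 and 2.69 (difference 1.18 ± 0.24, adjusted p = 0.00443). In all of these the W30d libraries lay above the B0d libraries, and replicate 2 was the highest or next to it. FLT3 and XCR1, receptors of dendritic cells and their precursors, rose by 1.09 ± 0.18 and 1.46 ± 0.31 (adjusted p = 0.00105 and 0.00518).

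**Figure D2:**
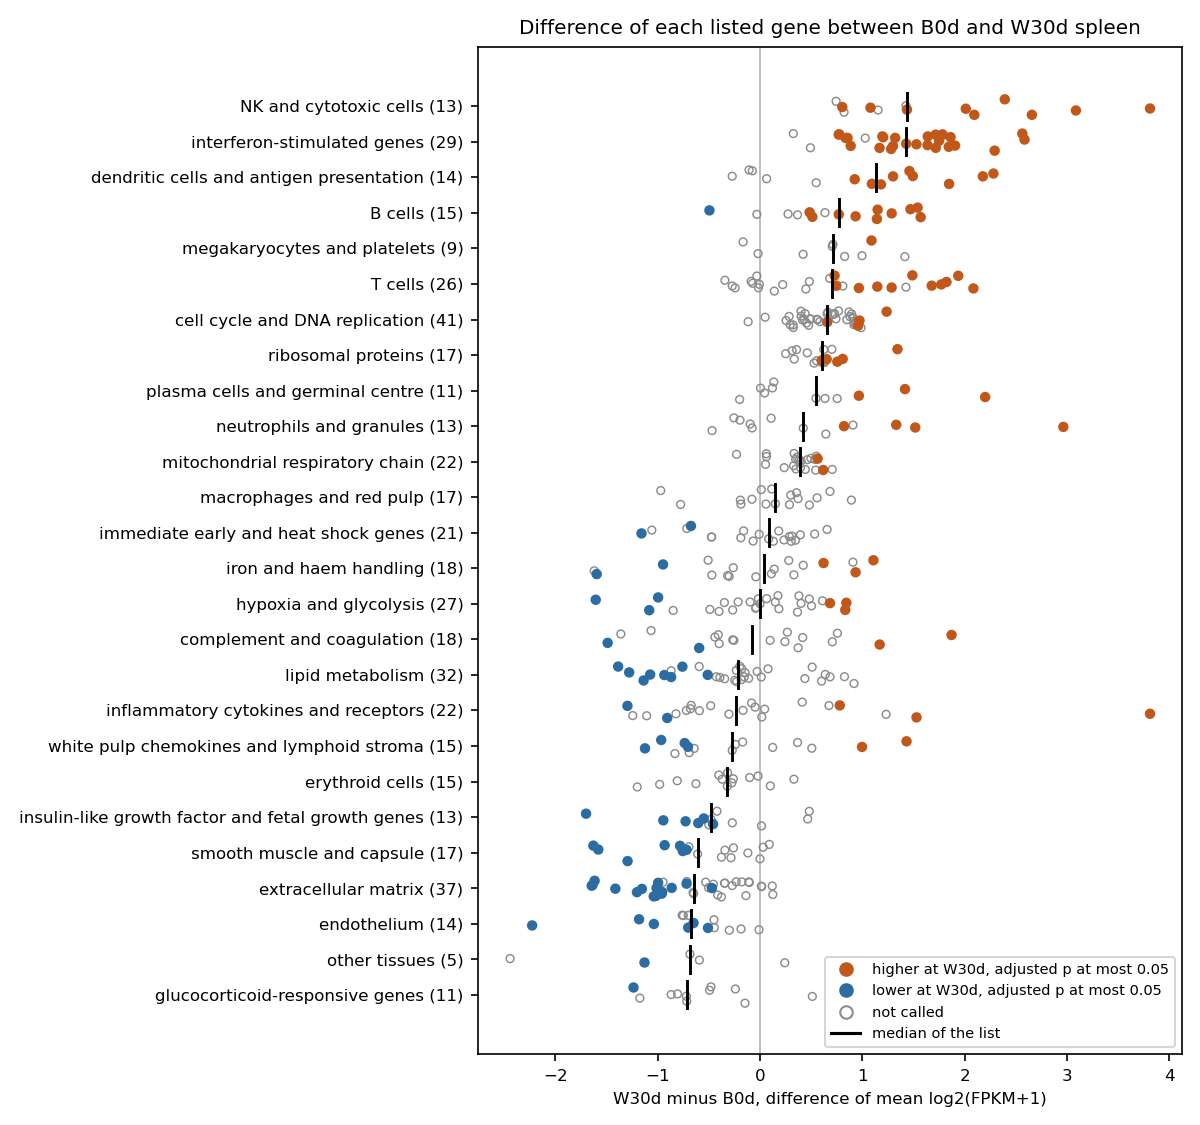
Difference between W30d and B0d, in log2(FPKM+1), of each measured gene of 26 lists ordered by the median difference, with the number of measured genes in brackets. Filled points were called (adjusted p of at most 0.05, orange higher and blue lower at W30d), open points were not, and the black bar is the list's median. Of 29 interferon-stimulated genes 26 are filled on the right, and of 37 matrix genes 15 are filled on the left. HBB, listed at 0 in 2 W30d libraries, is not drawn.

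Of 13 measured neutrophil and granule genes, 4 rose and 9 did not pass the test (median difference 0.42). Without W30d replicate 2, 5 rose with a median of 0.80, without W30d replicate 3, 3 rose with a median of -0.06, and with the 6 libraries alone 1 rose. EPX, the peroxidase of eosinophils, had 0.88, 1.35 and 1.20 at B0d and 4.80, 2.40 and 5.12 at W30d, a difference of 2.97 ± 0.56 (adjusted p = 0.00223). AZU1, a protein of azurophil granules, had 0.32, 0.64 and 0.31 against 2.80, 0.98 and 2.04, and CEBPE, a transcription factor of granulocyte maturation, had 0.14, 0.26 and 0.51 against 1.97, 1.28 and 1.66 (differences 1.52 ± 0.30 and 1.33 ± 0.21, adjusted p = 0.00295 and 0.000787). W30d replicate 2 was the lowest W30d library for all 3, whereas it was the highest for the NK genes above. LTF, which encodes lactoferrin, was at 4.28, 1.02 and 4.21 at W30d and at 1.47, 3.17 and 2.15 at B0d, so that its groups overlapped through that library. ANXA1, which encodes annexin A1, was the remaining member that rose, by 0.82 ± 0.25 (adjusted p = 0.0364).

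Macrophage genes did not pass the test. Of 17 measured members 0 were called with limma over all 18 libraries, with the 6 libraries alone or with a variance per group, and the median difference was 0.15 (0.02 without W30d replicate 2). At an unadjusted p of at most 0.05 over all libraries, 2 were higher (VCAM1 and C1QA) and 2 were lower (CD14 and MARCO). The complement gene C1QA had 9.68, 9.66 and 9.33 at B0d and 9.78, 10.51 and 9.84 at W30d, a difference of 0.48 ± 0.21 (adjusted p = 0.127). VCAM1, an adhesion molecule of red pulp macrophages, had 8.31, 8.16 and 7.85 against 8.62, 8.89 and 8.48 (difference 0.56 ± 0.21, adjusted p = 0.0806). The lysosomal genes CTSB and CD63 differed by 0.15 ± 0.18 and 0.12 ± 0.17. MARCO, a scavenger receptor, had 7.33, 8.46 and 7.84 against 6.06, 7.48 and 7.18, with groups that overlapped. The summed level of CD68, CSF1R, MARCO and C1QA was 24.0 to 25.3 at B0d and 23.1 to 26.3 at W30d. Leaving out B0d replicate 3 gave 1 call, LYZ.

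Of 22 inflammatory cytokines and receptors, 3 rose, 2 fell and 17 did not pass the test (median difference -0.23), and CCL5 above is 1 of the rises. Without B0d replicate 3, 5 rose and 1 fell, and the median difference turned to 0.09, while without W30d replicate 2, 3 rose and 3 fell with a median of -0.43. CASP1, the protease that activates interleukin 1 beta, had 1.68, 1.88 and 1.94 at B0d and 3.01, 3.24 and 3.84 at W30d (difference 1.53 ± 0.24, adjusted p = 0.000726). NLRP3, a sensor that recruits it, had 2.79, 2.81 and 3.06 against 1.87, 2.32 and 1.76 (difference -0.91 ± 0.21, adjusted p = 0.00871). The receptor IL1R1 had 3.83, 3.37 and 4.91 against 3.11, 2.32 and 2.79 (difference -1.29 ± 0.34, adjusted p = 0.0176), and its adjusted p was 0.0762 without B0d replicate 3 and 0.0511 without W30d replicate 2. The mean of the 22 genes was 3.83 in B0d replicate 3 against 2.57 and 2.64 in the other B0d libraries, the library in which ALB was also high.

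Over all genes, 8.01% were called higher and 7.61% lower. Of 18 complement and coagulation genes, 2 rose, 2 fell and 14 did not pass the test (median difference -0.08). The median turned to 0.26 without B0d replicate 3 and to 0.12 without W30d replicate 3, with 2 rises and 2 falls and with 1 rise and 2 falls. C2, of the classical pathway, had 2.36, 2.28 and 1.82 at B0d and 3.36, 4.55 and 4.17 at W30d (difference 1.87 ± 0.30, adjusted p = 0.0007). C7, a component of the membrane attack complex, had 8.68, 9.09 and 7.81 against 7.17, 7.07 and 6.87 (difference -1.49 ± 0.27, adjusted p = 0.00174). The groups did not overlap for either gene. The anaphylatoxin receptor C3AR1 rose by 1.17 ± 0.33 (adjusted p = 0.0259), and C6, which acts next to C7, had 0.79, 0.77 and 1.15 against 0.32, 0.29 and 0.32 (difference -0.59 ± 0.10, adjusted p = 0.000936).

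Erythroid genes turned on 1 library. Of 15 measured members, 0 rose, 1 fell and 14 did not pass the test over all libraries (median difference -0.32, and -0.75 without B0d replicate 3). SLC4A1, the anion exchanger of the red cell membrane, had 6.75, 6.84 and 5.64 at B0d and 7.57, 0.86 and 7.21 at W30d. RHAG, a red cell membrane protein, had 6.06, 6.02 and 4.64 against 6.84, 0.61 and 6.33, and TFRC, the transferrin receptor, had 7.37, 7.43 and 6.52 against 8.35, 4.28 and 7.75. W30d replicates 1 and 3 lay above every B0d library for all 3 genes, and replicate 2 below every B0d library. Without replicate 2, 7 of the 15 genes rose, HBB fell and the median difference was 1.16. The mean over the 15 genes was 2.70 in that library, against 6.52 and 6.07 in the other W30d libraries, 5.29 to 6.54 at B0d and 2.59 to 2.88 at A180d. The difference between the W30d libraries therefore exceeded that between the stages. The means include HBB, which was listed at 0 in W30d replicates 1 and 3 and at 12.44 to 13.55 at B0d. Every other measured member lay above all B0d libraries in W30d replicates 1 and 3.

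The member that fell, HBB, the beta chain of haemoglobin, differed from the rest of the list in which W30d libraries were low. It had 13.20, 13.55 and 12.44 at B0d and was listed at 0 in W30d replicates 1 and 3 and at 11.06 in replicate 2. It was also listed at 0 in 1 of the E55d libraries. The other erythroid genes were high in those 3 libraries, and HBM, another haemoglobin chain, had 11.67 and 11.35 in W30d replicates 1 and 3, so no fold change is given for HBB. Its adjusted p was 0.0437 with limma over all 18 libraries and 0.223 with a variance per group, and of the 6 libraries only W30d replicate 2 could be left out without losing the call.

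**Figure D3:**
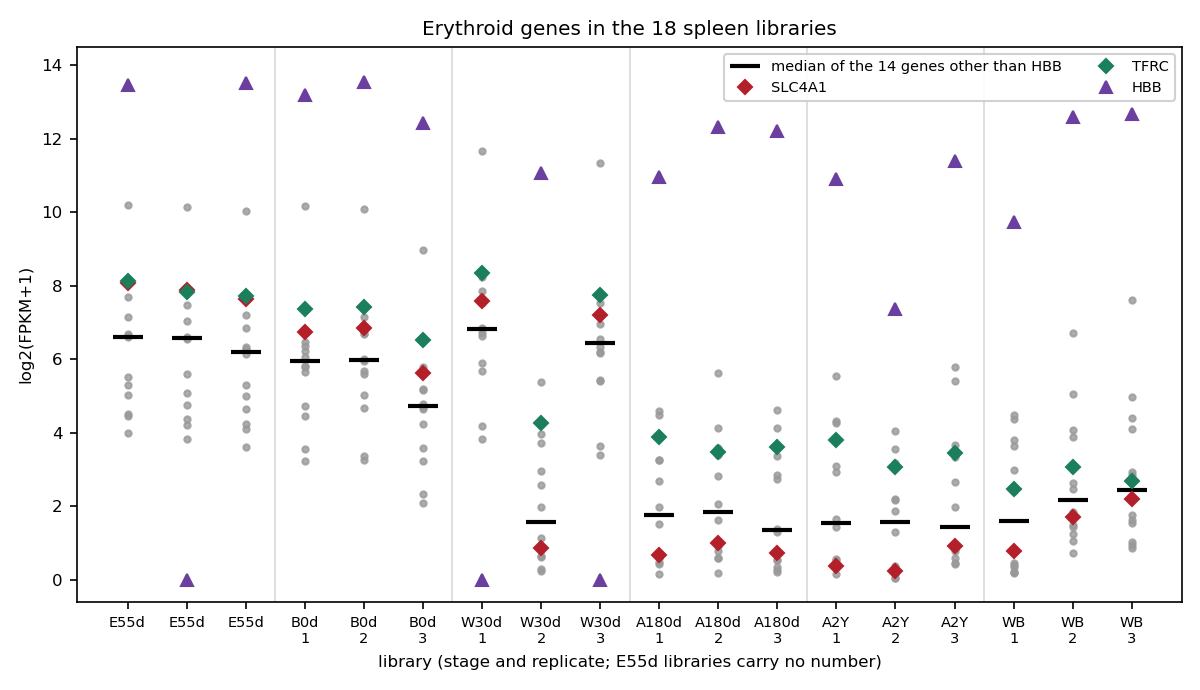
Levels, log2(FPKM+1), of the 15 measured erythroid genes in the 18 libraries, with grey points for single genes, a black bar for the median of the 14 genes other than HBB, and SLC4A1, TFRC and HBB marked. W30d replicate 2 lies near the A180d and A2Y libraries, whereas W30d replicates 1 and 3 lie at or above B0d. HBB is listed at 0 in 1 E55d library and in W30d replicates 1 and 3.

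Genes of dividing cells and platelets depended on the same library. Of 41 cell cycle and DNA replication genes, 4 rose, 0 fell and 37 did not pass the test, although 40 of 41 had a higher mean at W30d (median difference 0.66). Without W30d replicate 2, 30 of 41 rose (median difference 1.05), and 0 did without B0d replicate 3 (median difference 0.39), W30d replicate 1 or W30d replicate 3. TOP2A, the DNA topoisomerase of proliferating cells, had 5.05, 5.07 and 3.99 at B0d and 6.37, 5.10 and 6.36 at W30d (difference 1.24 ± 0.39, adjusted p = 0.043). The kinesin KIF23 had 2.45, 2.47 and 1.80 against 3.69, 2.42 and 3.53, so that replicate 2 lay within the B0d range. KIF20A and RRM1, a motor of cell division and a subunit of ribonucleotide reductase, gave the same picture, with differences of 0.96 ± 0.31 and 0.66 ± 0.22 (adjusted p = 0.0489 and 0.0496). With a variance per group and with the 6 libraries alone, 0 of the 41 genes were called by limma, while 21 had an unadjusted p of at most 0.05 over all libraries. Of 9 megakaryocyte and platelet genes, 1 rose over all libraries, 7 rose without W30d replicate 2 and 0 without B0d replicate 3 or W30d replicate 3. The one called in the first fit was the platelet receptor P2RY12, with 1.07, 1.54 and 0.38 at B0d and 2.00, 2.03 and 2.20 at W30d (difference 1.08 ± 0.28, adjusted p = 0.0154). GP1BB, a chain of the von Willebrand factor receptor, had 4.04, 3.81 and 3.72 against 5.54, 4.32 and 5.97 and was called without replicate 2 (adjusted p = 0.0202 with limma).

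Of 18 genes of iron and haem handling, 3 rose, 2 fell and 13 did not pass the test (median difference 0.04), with 6 rises and a median of 0.44 without W30d replicate 2, a median of -0.02 without B0d replicate 3, and 1 rise, 1 fall and a median of -0.09 without W30d replicate 3. FTL, the light chain of ferritin, was at 10.08, 10.34 and 10.26 at B0d and at 11.50, 11.11 and 11.42 at W30d (difference 1.11 ± 0.21, adjusted p = 0.00253). CP, which encodes ceruloplasmin, the copper enzyme that oxidizes iron, was at 4.32, 5.61 and 3.56 against 3.14, 2.48 and 3.08 (difference -1.59 ± 0.44, adjusted p = 0.0237). The groups did not overlap for either gene, but the adjusted p of CP was 0.059 without W30d replicate 2 and 0.121 with the 6 libraries alone. Its mean was 0.03 at E55d, 0.91 at A180d and 1.20 at A2Y, so that B0d and W30d held the highest means of the domestic stages. ACO1, an iron-responsive aconitase, fell by 0.95, and BLVRA, a biliverdin reductase, rose by 0.94 ± 0.27 (adjusted p = 0.00953 and 0.0281).

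**Figure D4:**
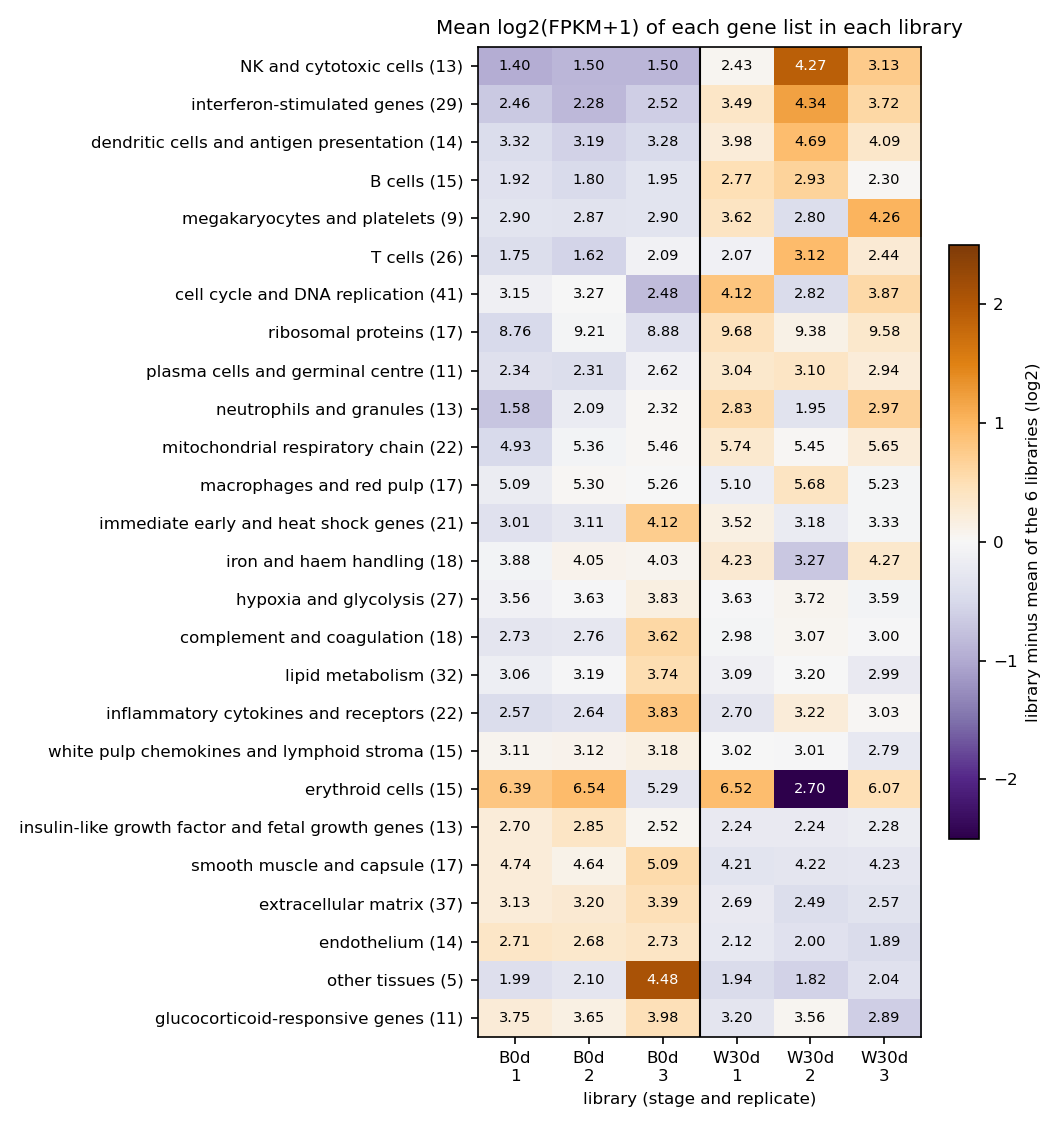
Mean log2(FPKM+1) of the measured genes of each list in each of the 6 libraries (numbers in the cells), coloured by the difference from the mean of the 6 libraries on the log2 scale. Erythroid genes stand at 2.70 in W30d replicate 2 against 5.29 to 6.54 in the other libraries. Their mean includes HBB, which is listed at 0 in W30d replicates 1 and 3. The lists of matrix, smooth muscle and endothelial genes are lower in every W30d library than in every B0d library.

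Extracellular matrix genes were lower at W30d. Of 37 measured members, 0 rose, 15 fell and 22 did not pass the test (median difference -0.65), beside 7.61% of all genes that fell. With a variance per group 12 fell, and with the 6 libraries alone 6. COL6A3, a chain of type VI collagen, had 3.97, 4.22 and 4.58 at B0d and 2.56, 2.55 and 2.72 at W30d (difference -1.64 ± 0.25, adjusted p = 0.000447). COL4A2, a collagen of basement membranes, had 4.25, 4.45 and 5.17 against 3.11, 2.95 and 2.97, and HSPG2, the basement membrane proteoglycan perlecan, had 2.88, 2.92 and 4.17 against 1.72, 1.67 and 1.67 (differences -1.62 ± 0.23 and -1.63 ± 0.30, adjusted p = 0.000335 and 0.00174). The W30d libraries were nearly level in each, and B0d replicate 3 was the highest. MMP2, a protease that cuts collagen, ran differently within B0d, with 4.16, 3.63 and 3.36 against 2.07, 2.68 and 2.17 (difference -1.41 ± 0.28, adjusted p = 0.00312). Between 11 and 16 matrix genes fell when single libraries were left out, with 11 without W30d replicate 3. Without B0d replicate 3, 13 fell (median difference -0.50), and without W30d replicate 2, 16 fell (median difference -0.49).

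Smooth muscle and capsule genes and endothelial genes were also lower. Of 17 smooth muscle genes 7 fell and 0 rose (median difference -0.61), with 4 falls with a variance per group, 2 with the 6 libraries alone, 4 without W30d replicate 1 and 3 without W30d replicate 3. DES, the intermediate filament desmin, had 4.84, 5.32 and 6.15 at B0d and 3.69, 4.31 and 3.44 at W30d (difference -1.63 ± 0.28, adjusted p = 0.00139). PDGFRB, the receptor of pericytes, had 3.19, 3.34 and 2.92 against 1.43, 1.62 and 1.67 (difference -1.58 ± 0.18, adjusted p = 5.74e-05). The separation was widest, relative to the spread, for PDGFRB. NOTCH3 and SMTN, a receptor of vascular smooth muscle and the protein smoothelin, fell by 1.29 and 0.93. The summed levels of ACTA2, MYH11, DES and TAGLN were 24.8, 25.2 and 28.4 at B0d and 22.6, 23.4 and 22.6 at W30d, so the markers were highest in B0d replicate 3, and without it 5 genes fell.

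Of 14 endothelial genes 6 fell, 0 rose and 8 did not pass the test, and all 14 had a lower mean at W30d (median difference -0.67). Besides ENG, FLT1, a receptor for vascular endothelial growth factor, had 2.51, 2.04 and 2.70 at B0d and 1.3, 1.3 and 1.11 at W30d (difference -1.18 ± 0.18, adjusted p = 0.000448). LYVE1, a hyaluronan receptor, had 3.38, 3.86 and 3.26 against 2.22, 2.61 and 2.55, and the growth factor receptor KDR had 4.0, 4.16 and 3.63 against 3.41, 3.16 and 3.13 (differences -1.04 ± 0.21 and -0.70 ± 0.17, adjusted p = 0.00356 and 0.0125). No W30d value of these genes reached a B0d value. PECAM1, a pan-endothelial marker, was at 4.74, 4.91 and 4.58 against 4.29, 4.27 and 4.32, whereas TEK was at 2.47, 2.52 and 2.18 against 2.55, 2.19 and 2.40 and overlapped. With a variance per group 5 endothelial genes fell, with the 6 libraries alone 2 and without W30d replicate 3, 3. Without B0d replicate 3, 4 fell, with a median difference of -0.58.

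Among 15 genes of white pulp chemokines and lymphoid stroma, 2 rose, 4 fell and 9 did not pass the test (median difference -0.27). Without W30d replicate 2, 5 fell, and without B0d replicate 3, 3 fell, with median differences of -0.34 and -0.40. The members that fell included transcription factors of spleen mesenchyme. WT1 had 3.01, 3.04 and 2.65 at B0d and 1.47, 2.03 and 1.83 at W30d, and TLX1 had 4.03, 4.28 and 4.26 against 3.01, 3.41 and 3.25 (differences -1.12 ± 0.19 and -0.96 ± 0.24, adjusted p = 0.00105 and 0.0126). NKX2-3 had 3.28, 3.75 and 3.18 against 2.88, 2.66 and 2.56 (difference -0.70 ± 0.20, adjusted p = 0.0246). Those that rose were CLU, which encodes the chaperone clusterin, with 5.84, 5.43 and 6.09 against 7.65, 6.96 and 7.05, and TNFSF13B, the B-cell survival factor BAFF, with 1.23, 1.86 and 2.28 against 2.53, 3.17 and 2.66 (differences 1.43 ± 0.26 and 1.00 ± 0.24, adjusted p = 0.00173 and 0.0115). LTBR, the lymphotoxin receptor, fell by 0.73, and its call was lost without B0d replicate 3 (adjusted p = 0.108 with limma).

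Growth-related and metabolic lists were lower or mixed. Of 13 insulin-like growth factor and fetal growth genes 6 fell and 0 rose (median difference -0.48), with 3 falls with a variance per group and 3 without W30d replicate 3. Without W30d replicate 2, 5 fell and 1 rose. IGFBP5, a binding protein of the growth factor, had 4.15, 4.39 and 3.07 at B0d and 1.42, 2.97 and 2.12 at W30d, and IGFBP4 had 5.08, 5.39 and 5.15 against 4.33, 4.31 and 4.15 (differences -1.70 ± 0.48 and -0.94 ± 0.20, adjusted p = 0.0263 and 0.00551). The groups of IGFBP5 nearly touched, those of IGFBP4 did not. NDN and IGF2BP2, an imprinted gene and a fetal RNA-binding protein, fell by 0.73 and 0.60.

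Of 32 lipid genes 8 fell and 0 rose (median difference -0.21). SQLE, an enzyme of sterol synthesis, had 1.75, 2.97 and 3.62 at B0d and 1.03, 1.72 and 1.43 at W30d (difference -1.38 ± 0.36, adjusted p = 0.0169). FASN, the fatty acid synthase, had 2.25, 2.26 and 3.85 against 1.59, 2.08 and 1.48 (difference -1.07 ± 0.33, adjusted p = 0.0365). B0d replicate 3 was the highest library for both genes, and the groups did not overlap. Without B0d replicate 3, 3 lipid genes fell and 1 rose, with a median difference of 0.01, and 4 fell without W30d replicate 1 or W30d replicate 3. Without W30d replicate 2, 9 lipid genes fell and 3 rose, with a median difference of -0.28. APOA1, an apolipoprotein that is also 1 of 5 measured genes of other tissues and the member of that list that fell, had 5.67, 5.65 and 7.28 against 5.33, 5.12 and 4.73 (difference -1.14 ± 0.34, adjusted p = 0.0334 and 0.121 without B0d replicate 3). The median over these 5 genes was -0.68, and -0.17 without B0d replicate 3. The part of liver RNA in these values was not tested.

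Of 27 genes of hypoxia and glycolysis, 3 rose, 3 fell and 21 did not pass the test (median difference 0.00), with 1 rise and 2 falls without B0d replicate 1 or B0d replicate 2 and 1 of each without W30d replicate 3. Without B0d replicate 3, 3 rose and 1 fell with a median of 0.14. EPAS1, a hypoxia-inducible factor that vessels express, had 4.85, 5.34 and 4.87 at B0d and 3.10, 3.79 and 3.37 at W30d (difference -1.60 ± 0.19, adjusted p = 9.91e-05). VEGFA, the vascular growth factor, had 2.61, 2.93 and 2.87 against 1.87, 1.71 and 1.58 (difference -1.08 ± 0.32, adjusted p = 0.0332). The groups were clearly apart for both. ENO2, a glycolytic enolase, fell by 0.99, and ANKRD37, a hypoxia-responsive gene, rose by 0.84 ± 0.20 (adjusted p = 0.0289 and 0.0104). LDHA and PFKP, glycolytic enzymes, rose by 0.69 ± 0.20 and 0.83 ± 0.23 (adjusted p = 0.0318 and 0.0235, and 0.0698 and 0.0765 without W30d replicate 2). Of 11 glucocorticoid-responsive genes 1 fell (CRISPLD2, difference -1.24 ± 0.27, adjusted p = 0.00658) and 10 did not pass the test, with a median difference of -0.71 (-0.47 without B0d replicate 3) and with 3 falls without B0d replicate 1 and 2 without W30d replicate 2. Over all genes 7.61% were called lower, a share near that of the glucocorticoid-responsive list. FKBP5, a well-known member of this list, had 5.87, 5.50 and 5.80 against 5.04, 5.94 and 4.76, with overlap through W30d replicate 2.

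Of 21 immediate early and heat shock genes, 2 fell (KLF4 and MYC, differences -1.16 ± 0.34 and -0.67 ± 0.20, adjusted p = 0.031 and 0.0315) and 19 did not pass the test. These are transcription factors induced by growth signals, and both lost their call without B0d replicate 3 (adjusted p = 0.116 and 0.108 with limma) and without W30d replicate 1 or W30d replicate 3. Without B0d replicate 3, 0 genes of the list fell, the chaperone genes HSPA8, DNAJA1 and HSPA5 rose, and the median difference was 0.36 against 0.09 over all libraries. The mean of the list was 4.12 in that library against 3.01 and 3.11. Of 22 genes of the mitochondrial respiratory chain 2 rose (NDUFA2 and COX5B, differences 0.56 ± 0.17 and 0.62 ± 0.19), and of 17 ribosomal protein genes 5 rose, with medians of 0.39 and 0.61. RPS23, of the small ribosomal subunit, was at 6.84, 8.49 and 8.23 at B0d and at 9.35, 9.39 and 8.86 at W30d (difference 1.34 ± 0.43, adjusted p = 0.046), and RPS16 and RPLP2 rose by 0.76 and 0.65. All 17 ribosomal genes had a higher mean at W30d, but without W30d replicate 1, 0 were called, without B0d replicate 1, 1, without B0d replicate 3, 1, and without W30d replicate 3, 1. For the respiratory chain 0 were called without B0d replicate 1, W30d replicate 1 or W30d replicate 3, and 4 without B0d replicate 2. In the fit over all libraries its share of rises was near the 8.01% of all genes called higher.

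Long non-coding RNAs were mainly lower at W30d. Of 14129 lncRNAs tested, 1728 (12.2%) were called with limma over all 18 libraries, 148 higher (1.05%) and 1580 lower (11.2%). Of those called, 1564 had groups that did not overlap, beside 22.4% of all tested lncRNAs. The median difference was -0.15, and the W30d mean was the higher one for 29.2%. The split depended on the scaling. When each library was scaled by the median ratio of its lncRNAs, which moves the median difference to 0, 413 were called, 148 higher and 265 lower. With a variance per group 544 (3.85%) were called, 22 (0.156%) higher and 522 (3.69%) lower. Without W30d replicate 2, 2292 (16.2%) were called, 2.03% higher and 14.2% lower, and without B0d replicate 3, 1314 (9.3%), 0.658% higher and 8.64% lower. With the 6 libraries alone 0 were called by limma, with a smallest adjusted p of 0.123 while 2389 reached 0.05 before adjustment. The number ranged from 825 without W30d replicate 3 and 905 without B0d replicate 1 to 2697 without B0d replicate 2.

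The shift was not shared cleanly by the libraries. The median level of the tested lncRNAs was 0.749, 0.542 and 0.629 at B0d and 0.401, 0.552 and 0.440 at W30d, so that W30d replicate 2 lay above B0d replicate 2. The difference of the group means was -0.176 (two-sided exact permutation test, p = 0.2, smallest possible 0.1). The median of the protein-coding genes was 2.41, 2.40 and 2.42 against 2.41, 2.44 and 2.39, a difference of 0.0024 (two-sided exact permutation test, p = 0.9). The number of lncRNAs detected was 12646, 12629 and 12284 at B0d and 12525, 12245 and 12447 at W30d, with overlap.

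**Figure D5:**
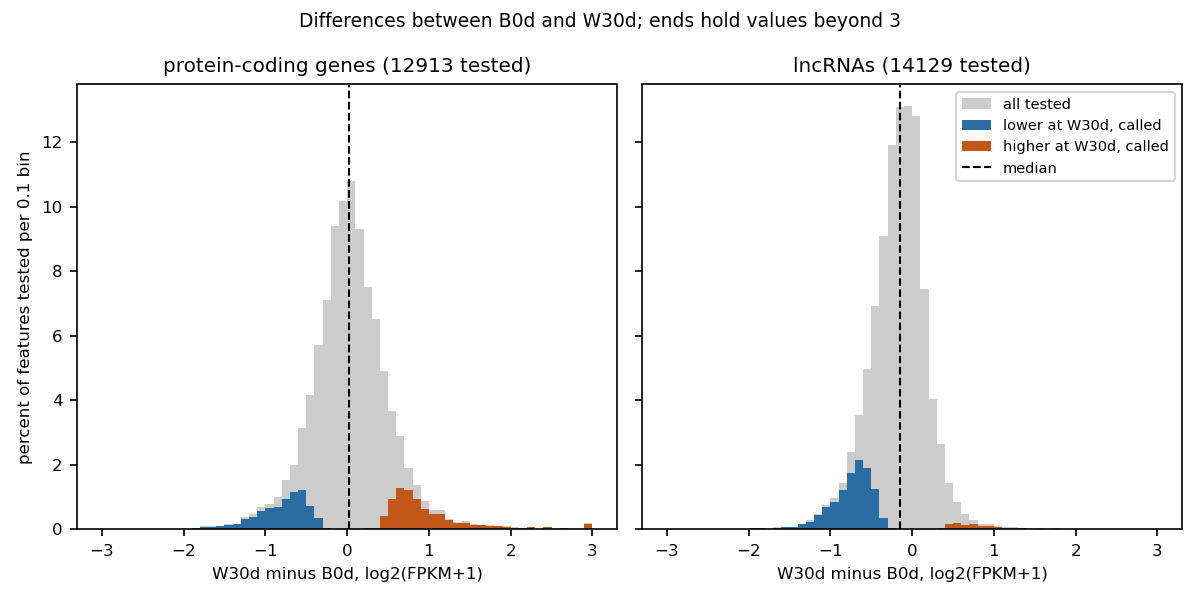
Percent of tested features in bins of 0.1 of the difference between W30d and B0d in log2(FPKM+1), for protein-coding genes (left, median 0.03) and lncRNAs (right, median -0.15), with called features in blue (lower at W30d) and orange (higher at W30d) and a dashed line at the median. The called protein-coding genes divide into 1034 higher and 983 lower, the called lncRNAs into 148 higher and 1580 lower.

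Single lncRNAs showed large differences. TU8312 had 3.48, 3.34 and 2.34 at B0d and 0, 0.03 and 0.02 at W30d, and it was listed at 0 in the A180d libraries as well (adjusted p = 1.09e-07). TU55142 had 2.96, 4.05 and 4.53 against 1.25, 2.10 and 1.70 (difference -2.17 ± 0.43, adjusted p = 0.00421). TU81298 and TU81297, with neighbouring numbers, had 5.16, 4.99 and 3.21 against 1.83, 3.08 and 2.23 and 5.24, 5.44 and 3.60 against 2.38, 3.44 and 2.56. B0d replicate 3 was the lowest B0d library for both, and the groups stayed apart. TU34829 was at 4.25, 0.25 and 3.92 at B0d and TU73413 at 2.47, 1.73 and 1.78, and both were listed at 0 in all 3 W30d libraries, so no fold change is given. With a variance per group TU73413, TU81298 and TU81297 were no longer called (adjusted p = 0.223, 0.122 and 0.134 with limma).

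Among the lncRNAs that rose, TU67200 had 1.00, 0.53 and 1.49 at B0d and 2.06, 4.75 and 3.08 at W30d, a difference of 2.29 ± 0.47 (adjusted p = 0.00523). TU17801 had 2.76, 2.39 and 2.67 against 3.35, 4.77 and 4.47 (difference 1.59 ± 0.35, adjusted p = 0.00835), and TU68889 had 0.78, 1.76 and 1.49 against 2.19, 3.26 and 2.73 (difference 1.39 ± 0.27, adjusted p = 0.00398). W30d replicate 2 was the highest library in all of them, and TU17801 was not called with a variance per group (adjusted p = 0.0968 with limma). TU24209, at 0.35, 0 and 0 against 1.93, 1.91 and 1.44, TU81936, at 1.70, 0 and 1.71 against 1.83, 3.08 and 3.22, and TU28279, at 0, 0.14 and 0.50 against 1.35, 2.54 and 1.24, were listed at 0 in at least 1 B0d library. TU78568 had 3.59, 3.27 and 3.71 against 3.92, 5.01 and 3.64, with overlap (difference 0.67 ± 0.31, adjusted p = 0.176). Its means at A180d and A2Y were 5.98 and 5.72.

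Libraries of the same stage were more alike on average than libraries of different stages, but single pairs overlapped. Over protein-coding genes the mean Pearson correlation was 0.950 within B0d, 0.953 within W30d and 0.926 between the stages. Within W30d it ranged from 0.932 to 0.983, and its lower pairs were those with replicate 2. The highest pair between the stages, B0d replicate 2 with W30d replicate 1 at 0.951, exceeded the pairs of B0d replicate 3 with the other B0d libraries (0.936 and 0.939) and those of W30d replicate 2 with the other W30d libraries (0.932 and 0.945). Over lncRNAs the means were 0.849, 0.840 and 0.792. Within-stage pairs exceeded between-stage pairs by 0.0256 for protein-coding genes and by 0.0530 for lncRNAs (one-sided exact permutation test over the 10 splits, p = 0.1 each, the smallest that 3 against 3 libraries allow).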

How the data were processed

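Paired-end, strand-specific RNA-seq libraries were made from whole spleen. Per the paper's methods and the submitters' processing notes, the authors mapped reads with TopHat to the pig genome (Sscrofa10.2) and estimated levels with StringTie 1.3.3; the notes also name Cufflinks 2.2.1. The authors deposited log2(FPKM+1) values in 1 table of 12913 protein-coding genes and 1 of 15040 lncRNAs. Empty cells of the lncRNA table, 15464 in the 6 libraries compared, were read as 0. The files hold no read counts, coordinates or sequences, so depth and counting error are unknown. FPKM is relative to the total of a library, so that a few abundant genes can lower all others.

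Identifiers were paired with symbols for 8215 protein-coding genes, and 4698 had none and entered no list. Features that exceeded an FPKM of 0.1 in 3 or more of the 18 libraries entered limma 3.58.1 in R 4.3.3, in 1 model of 6 groups (12 residual degrees of freedom, moderated with a mean-variance trend), with Benjamini-Hochberg adjustment within each table. A feature was called at an adjusted p of at most 0.05. Each p-value of this model rests on the spread between pigs pooled over the 6 groups, not on that of the B0d and W30d pigs alone. As B0d and W30d were more variable than E55d and A180d, the pooled spread can understate theirs. Medians per library and similarities were compared with exact permutation tests over 10 splits (smallest p 0.1). Python 3.11.15, numpy 2.4.6, pandas 2.3.3 and matplotlib 3.10.9 were used for summaries and figures. The model was also run on simulated data, with a pass check only for groups of equal spread. That check cannot show how the calls hold where B0d and W30d are more variable.

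The text names the 15 largest rises and 15 largest falls among called genes with a symbol, without overlap and with a mean of at least 2 in the higher group, up to 4 members of each of 26 gene lists (866 symbols, 471 measured), by the same rule 6 rises and 6 falls of lncRNAs (mean of at least 1), and CP and TU78568. Other genes named (such as SLC4A1, PRF1, CD8A, VPREB3, CIITA, LTF, MARCO, GP1BB, PECAM1, TEK, LTBR, LDHA, PFKP, FKBP5) were chosen after their values were seen. Some features that this rule selects are not reported here. The groups, gene lists and comparisons were chosen with earlier results of these data known. Alternatives were the 6 libraries alone, a variance per group, scaling by the median ratio, a pseudocount of 0.1, a filter of FPKM above 1 or none, no trend, a robust fit, a replicate block and leaving out each library. The labels give no batch or date.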

Additional observations from a re-analysis of the deposited data

How the results depend on the processing

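The number of calls depended on how the spread was estimated. With the 6 libraries alone, 417 protein-coding genes, 0 lncRNAs and 50 listed genes were called by limma, and with a variance per group 1068 protein-coding genes and 544 lncRNAs. Scaling by the median ratio of the lncRNAs left 413 lncRNAs called, and its factors differ within B0d from 0.34 to 0.93 on the log2 scale. Leaving out 1 library gave 1108 to 2492 protein-coding genes, 825 to 2697 lncRNAs and 105 to 192 listed genes. The cause of these differences was not tested, except that fewer samples entered the fits of fewer libraries.

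Over the same fits the difference of the lncRNA medians lay between -0.225 and -0.122, that of the protein-coding medians between -0.00896 and 0.0129, and the gain in similarity between 0.0211 and 0.0294 for protein-coding genes and between 0.0427 and 0.0718 for lncRNAs. The protein-coding median, which was close to 0, turned its sign with median-ratio scaling (-0.00740), without B0d replicate 2 (-0.00426) and without W30d replicate 2 (-0.00896). CTSB (-0.099, with B0d replicate 3 and W30d replicate 2 both left out, an alternative chosen after seeing the data) and CD63 (-0.011 without B0d replicate 1, up to 0.26 without B0d replicate 2) also changed sign and were not called in any of these fits. Of 114 named features, 53 kept their side of the threshold with the 6 libraries alone, 88 with a variance per group and 108 with a pseudocount of 0.1, and 114 without a filter or trend. Calls near the threshold that leaving out any of 3 or more single libraries ended were those of ANXA1, BLVRA, C3AR1, COX5B, CP, ENO2, FASN, HBB, ICOS, IGFBP5, KIF20A, KIF23, KLF4, MYC, NDN, NDUFA2, NOTCH3, RPLP2, RPS16, RPS23, RRM1, SQLE, TOP2A, VEGFA, TU73413, TU81297 and TU81298. Calls that 1 or 2 libraries ended were those of APOA1 (B0d replicate 3, W30d replicate 3), IGF2BP2 (B0d replicate 1, W30d replicate 1), IL1R1 (B0d replicate 3, W30d replicate 2), KDR (B0d replicate 2, W30d replicate 3), P2RY12 (B0d replicate 3, W30d replicate 3), TLX1 (W30d replicate 1), TNFSF13B (B0d replicate 1), TU34829 (B0d replicate 1) and TU81936 (W30d replicate 3).

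Same-numbered libraries of the stages did not deviate together (correlations of -0.30 to 0.00067 over protein-coding genes, 0 of 6 libraries closest to its own number), so the numbers were not taken as pairs. With a replicate block 1236 protein-coding genes were called over 15 libraries, and with the block in the 6 libraries 8 protein-coding genes, 0 lncRNAs and 0 listed genes. With 3 libraries per stage and unknown depth, low genes and lncRNAs are the least certain values.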

Other observations

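Gene families, formed by symbol after the values had been seen, are given without a test of the family. Some members, such as JAG1, NOTCH3, XCR1 and FASN, are also reported above, so the families are not separate evidence. In all, 15 families were counted. Over all genes, 7.61% were called lower. Of 11 Eph receptors and ephrins, molecules of contact between cells, 6 fell and 0 rose (median difference -0.67, against 0.03 over all genes), and the count was 6 with a variance per group as well. The ligand EFNB2 had 3.02, 3.04 and 2.83 at B0d and 1.75, 1.67 and 1.61 at W30d (difference -1.29 ± 0.22, adjusted p = 0.00139 with limma). Of 4 measured fibroblast growth factor receptors 3 fell. FGFR2 had 2.04, 2.45 and 2.85 against 0.91, 0.76 and 0.95, and FGFR1 had 3.40, 3.23 and 2.79 against 1.77, 2.07 and 1.73, with no overlap in either. Of 10 Notch receptors, ligands and target factors 5 fell, among them the ligand DLL1 with 4.45, 4.64 and 5.57 against 3.20, 3.82 and 3.10. Of 11 ADAMTS proteases, enzymes of the matrix, 6 fell, and of 8 receptors for bone morphogenetic proteins and activins 4 fell. BMPR1A had 3.67, 3.68 and 3.46 against 2.51, 2.70 and 2.55. All 3 measured TRPC cation channels fell, with TRPC6 at 3.66, 3.19 and 3.24 against 2.34, 2.44 and 2.23. Of 22 semaphorins and plexins, guidance molecules and their receptors, 7 fell and 0 rose. Of 9 genes of fatty acid synthesis and desaturation 6 fell, but 2 without B0d replicate 3.

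In the other families most of the called members were higher, but in several of them most members were not called. Over all genes, 8.01% were called higher. Of 11 chemokine receptors 6 rose and 0 fell (median difference 0.63), with 3 rises without W30d replicate 2. CCR3, a receptor of eosinophils, had 0.24, 0.69 and 0.42 at B0d and 1.27, 1.47 and 1.46 at W30d. Of 6 subunits of the ARP2/3 complex, which branches actin filaments, 4 rose. ARPC3 had 6.57, 7.09 and 6.93 against 7.60, 7.73 and 7.81, and all W30d libraries lay above all B0d libraries. Among 19 integrins, 3 of lymphocytes rose and 2 fell. ITGAL, a chain of the lymphocyte integrin LFA-1, had 2.89, 2.97 and 3.65 against 3.98, 5.29 and 4.19, whereas ITGA8, known from mesenchyme, had 4.78, 4.83 and 4.39 against 3.44, 3.16 and 3.23. Of 23 proteasome subunits 3 rose and 20 did not pass the test, and those that rose included both measured activator subunits that interferon induces, PSME1 and PSME2 (differences 0.72 ± 0.16 and 1.17 ± 0.26, adjusted p = 0.00833 and 0.00676 with limma). Of 10 cathepsins, proteases of lysosomes, 5 rose and 1 fell, with 3 rises and no fall without W30d replicate 2. CTSW, of cytotoxic lymphocytes, had 4.18, 4.19 and 4.67 against 5.39, 6.79 and 5.76. Of 8 Toll-like receptors 3 rose, all of the group of TLR1, TLR6 and TLR10. Of 41 mitochondrial ribosomal proteins 2 rose, a share below that of all genes, and 0 did without B0d replicate 3.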
